A study of Mus musculus with 6 samples.

Results

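Immediate early genes are switched on within minutes of a stimulus, from factors already present in the cell. The 9 described here are Fos, Fosb, Junb, Egr1, Nr4a1, Arc, Ier2, Atf3 and Dusp1, which are 9 of the 18193 genes that the array annotation names singly. They were found as every probe set that names exactly 1 of these genes, and each gene had 1 such probe set, giving 9 of 45037 probe sets other than controls.

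The knockout arrays carry retina of ko/ko mice, homozygous for loss of Nxnl2, and the wild-type arrays carry retina of wt/wt mice. All mice were of the albino strain BALB/c AJ, at post-natal day 40, kept under a light and dark cycle and killed by cervical dislocation, and retina was freed of the pigment epithelium. There were 3 arrays of each genotype. How the allele was made, the time of day of collection and whether replicates are separate animals are not given in the labels, so a p-value here reflects array-to-array spread, which may be technical. The small number of arrays limits the precision. Nxnl2 encodes a thioredoxin-like photoreceptor protein.

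At rest, the promoters of these genes are held ready by serum response factor with its ternary complex partners and by CREB, which kinases of the ERK and calcium pathways activate. The transcripts are short-lived, so their level follows recent signalling. In retina they are known to respond to light, to synaptic activity and to injury. Several of the proteins are transcription factors that start a second wave of transcription, and others, such as Dusp1, shut the signal off.

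One array did not carry the transcripts of retina that its label gives. Nxnl2 (probe set 1429133_at) read 3.78 and 3.73 in knockout arrays 1 and 2 and 9.21 in the array labelled knockout 3, against 11.38, 11.45 and 11.42 in the wild-type arrays (log2 RMA values throughout). Rod transducin Gnat1 read 14.14 and 14.17 in knockout arrays 1 and 2 and 4.23 in the array labelled knockout 3, against 14.14 to 14.17 in wild type. Olfactory marker protein Omp read 12.61 in that array and between 5.15 and 5.62 in the other 5. All 7 measured rod markers lay at least 1 log2 unit under the wild-type range there, and all 5 measured olfactory neuron markers lay as far above it. That array is therefore given on its own in what follows, and the 2 other knockout arrays are set against the 3 wild-type arrays in what is called the 5-array comparison. In bulk retina, fewer cells of a type and less RNA per cell cannot be told apart.

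RefSeq promoter windows (GRCm38.p6, 250 bases before to 50 after the start) were at hand for 6 of the 9 genes. Those of Fos, Junb and Nr4a1 are shown because these transcripts were highest in the same 2 retinal arrays, one of each genotype, and that of Dusp1 because it holds the full cyclic AMP response element. Capitals mark matches on either strand to that element (CRE, TGACGTCA), its half-site (TGACG, which also lies inside the full element), the EGR site GCGNGGGCG and the TATA box TATAAA. All are printed 5′ to 3′ along the gene.
Fos, chr12:85473640-85473939, + strand: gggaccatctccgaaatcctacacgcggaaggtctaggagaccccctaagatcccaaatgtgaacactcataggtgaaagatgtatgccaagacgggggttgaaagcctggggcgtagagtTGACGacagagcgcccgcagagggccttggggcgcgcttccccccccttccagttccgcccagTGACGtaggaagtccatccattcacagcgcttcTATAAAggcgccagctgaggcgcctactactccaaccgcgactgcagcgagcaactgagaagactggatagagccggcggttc
Junb, chr8:84978699-84978998, - strand: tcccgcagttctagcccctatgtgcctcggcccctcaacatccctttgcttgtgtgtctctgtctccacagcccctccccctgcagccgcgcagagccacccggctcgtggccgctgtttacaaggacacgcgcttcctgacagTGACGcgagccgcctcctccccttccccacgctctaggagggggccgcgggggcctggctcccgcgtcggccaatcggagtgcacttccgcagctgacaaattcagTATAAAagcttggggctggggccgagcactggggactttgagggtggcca
Nr4a1, chr15:101266596-101266895, + strand: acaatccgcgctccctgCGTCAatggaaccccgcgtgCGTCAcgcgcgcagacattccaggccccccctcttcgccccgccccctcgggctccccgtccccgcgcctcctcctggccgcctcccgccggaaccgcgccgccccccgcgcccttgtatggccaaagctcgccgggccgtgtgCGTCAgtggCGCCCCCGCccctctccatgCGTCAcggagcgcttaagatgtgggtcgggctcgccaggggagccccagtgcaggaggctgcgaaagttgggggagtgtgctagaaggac
Dusp1, chr17:26508423-26508722, - strand: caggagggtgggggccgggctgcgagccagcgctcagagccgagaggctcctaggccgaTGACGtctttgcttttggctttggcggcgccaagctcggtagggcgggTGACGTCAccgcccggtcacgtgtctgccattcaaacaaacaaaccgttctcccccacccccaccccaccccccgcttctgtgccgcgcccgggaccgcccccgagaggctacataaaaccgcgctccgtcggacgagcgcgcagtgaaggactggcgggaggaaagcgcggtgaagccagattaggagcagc

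A CRE half-site was found in all 6 windows, where 20.8% of 32851 RefSeq windows of this length hold one. The Fos window has it at bases 122 to 126 and 185 to 189, ahead of a TATA box at bases 218 to 223. Junb has 1 half-site, at bases 145 to 149, and TATAAA at bases 251 to 256. Nr4a1 has 4 half-sites on the opposite strand, and between the third and the fourth lies an EGR site at bases 191 to 199. Fosb has 1 half-site and an EGR site, and Atf3 has 1 half-site. The full CRE, held by 1.79% of windows, was matched in Dusp1 alone of the 6, at bases 108 to 115. EGR sites are in 5.55% of windows and TATAAA in 13.6%. The AP-1 site TGANTCA (7.81% of windows) and the strict CArG box bound by serum response factor (1.63%) had no match in these 6 windows. The strict box is CC, then 6 bases that are each A or T, then GG. Boxes that differ from it by a base were not searched for, and the result says nothing of sequence further out. These matches describe letters only and do not show binding.

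Fos and Egr1 varied widely between arrays of the same genotype. Fos, the bZIP partner of Jun proteins in AP-1, read 10.70 in knockout array 1 and 8.33 in knockout array 2, against 9.16, 11.59 and 8.99 in wild-type arrays 1, 2 and 3. The high values are thus one of each genotype, and the groups overlap. Egr1, a zinc finger factor that recognises GC-rich sites, read 12.51 and 8.28 in knockout arrays 1 and 2, against 9.45, 13.58 and 10.72 in the wild-type arrays. Its highest and lowest wild-type arrays lay 17.6-fold apart, and its knockout arrays 1 and 2 lay 18.8-fold apart. For Fos the same spreads were 6.07-fold in wild type and 5.19-fold between the knockout arrays. Among 45037 probe sets, Egr1 had the widest gap between knockout arrays 1 and 2 and the second widest wild-type range. Fos ranked 14 by that gap and 20 by that range.

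In 4 other members with levels above background the same 2 arrays were highest, with smaller steps. Junb, an AP-1 subunit of the Jun family, read 7.38 and 6.14 in knockout arrays 1 and 2, against 6.28, 7.15 and 6.16 in wild type. Nr4a1, an orphan nuclear receptor, read 8.88 and 7.98 in the knockout arrays, against 8.52, 9.04 and 8.42 in wild type. Ier2, a nuclear protein of the serum response, read 8.73 and 8.14 in the knockout arrays, against 8.11, 9.46 and 8.37 in wild type. In each of these genes, knockout array 1 and wild-type array 2 exceeded the other 3 retinal arrays. The same held for Dusp1, the phosphatase that inactivates MAP kinases, at 9.50 and 8.77 in the knockout arrays, against 9.09, 9.35 and 9.18 in wild type. Knockout array 1 stood above knockout array 2 by 2.35-fold for Junb, 1.87-fold for Nr4a1, 1.51-fold for Ier2 and 1.65-fold for Dusp1. The wild-type spread was 2.55-fold for Ier2 and 1.98-fold for Junb, but only 1.54-fold for Nr4a1 and 1.20-fold for Dusp1.

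**Figure D1:**
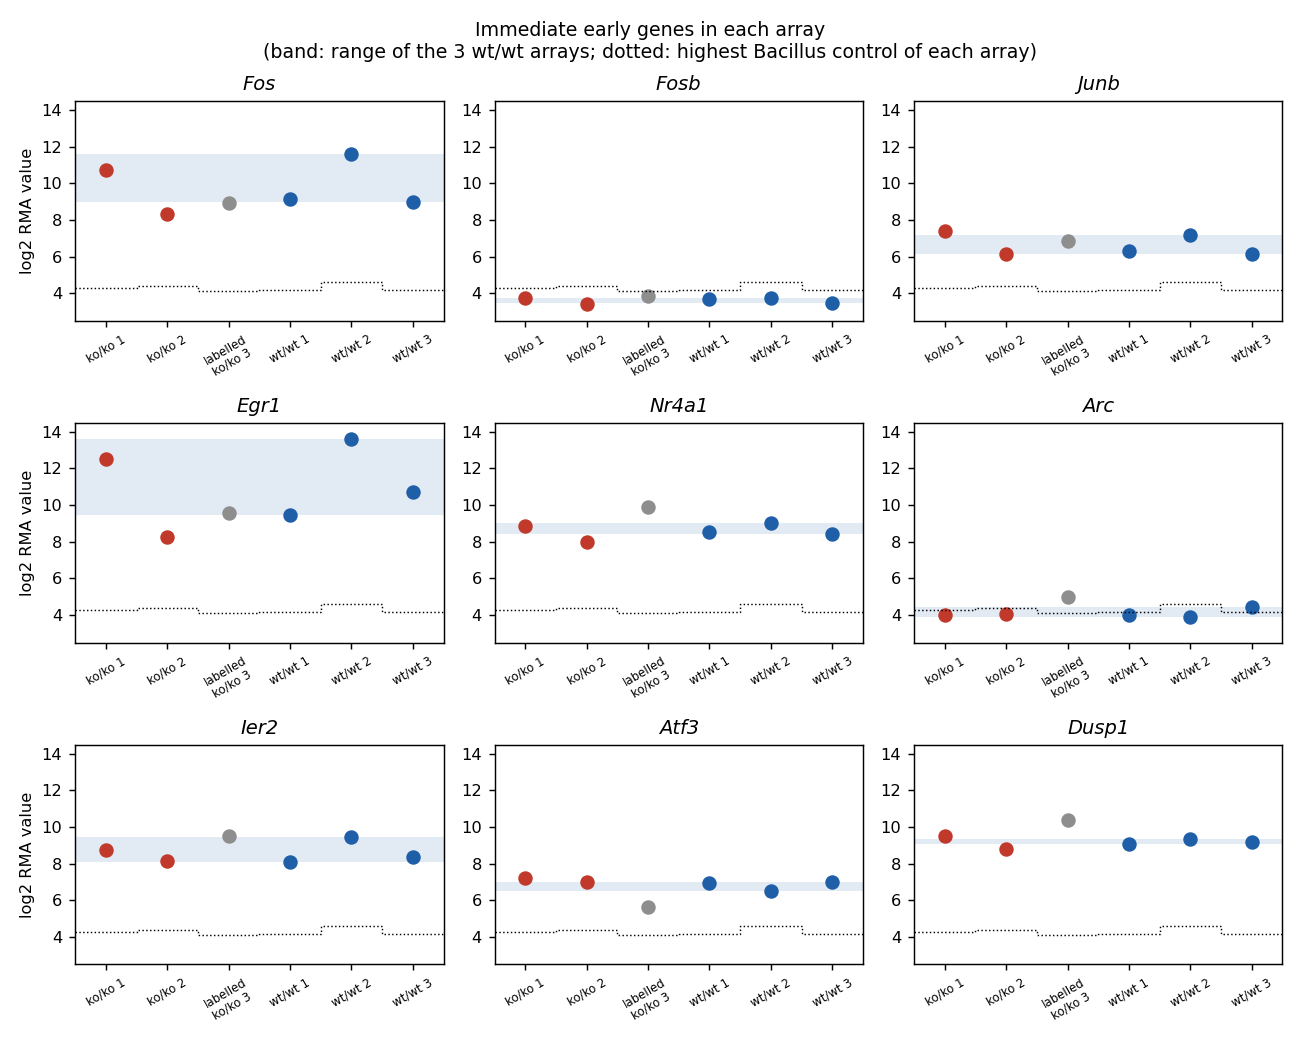
Log2 RMA value of each of the 9 immediate early genes (vertical axis) in the knockout arrays, the array labelled knockout 3 and the wild-type arrays (horizontal axis), 1 point per array, with a band for the wild-type range and a dotted line for each array's highest Bacillus control. Fos and Egr1 are high in knockout array 1 and wild-type array 2 and low in knockout array 2, while Fosb lies under the control line in every array.

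Atf3 and Arc did not follow that order, and Fosb was at background. Atf3, a stress-induced bZIP repressor, read 7.20 and 7.02 in knockout arrays 1 and 2, against 6.96, 6.52 and 6.99 in wild type. Its lowest value of the 5 arrays thus fell in wild-type array 2, where Fos and Egr1 were highest. Arc, which carries RNA in capsid-like shells and controls AMPA receptor removal at synapses, read 4.02 and 4.05 in the knockout arrays, against 4.01, 3.87 and 4.43 in wild type. Of the 6 arrays, Arc exceeded the highest Bacillus control, which has no mouse target, only in wild-type array 3 and in the array labelled knockout 3. Fosb, a Fos relative that also joins AP-1, read 3.75 and 3.43 in the knockout arrays, against 3.67, 3.72 and 3.49 in wild type. All its values lay under the highest Bacillus control of their arrays (4.13 to 4.60), so Fosb cannot be told from background, although here too knockout array 1 and wild-type array 2 were highest.

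None of the 9 genes was called in the 5-array comparison. By limma with Benjamini-Hochberg adjustment over 45037 probe sets, 0 of 9 members and 5 of all probe sets passed an adjusted p of 0.05, which is 0.0111% of those tested. At an unadjusted p under 0.05 stood 0 of 9 members and 1375 of all probe sets. Egr1 had the largest difference among the members, at -0.86 (SE 1.36, adjusted p = 1.0). Its 95% interval of -3.98 to 2.27 spans a fall to 0.0634 of the wild-type level and a rise of 4.82-fold. Fos stood at -0.40 (SE 0.86, adjusted p = 1.0), with an interval of -2.37 to 1.57. Neither interval is narrow enough to show that the genotypes are alike. The direction of both turned without wild-type array 2, at 0.31 for Egr1 and 0.44 for Fos, and without knockout array 2, at 1.26 and 0.79.

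The remaining 7 members had narrower intervals. Atf3 came nearest to a difference, at 0.29 (SE 0.16, unadjusted p = 0.0995, adjusted p = 1.0), with an interval of -0.07 to 0.64. Both of its knockout values lay above the wild-type range, by 0.04 at the least. It was the 1 member with both knockout arrays on one side of that range, where 16.3% of all probe sets had this. Junb stood at 0.23 (SE 0.38), Nr4a1 at -0.23 (SE 0.27) and Ier2 at -0.21 (SE 0.36). Arc and Dusp1 each stood at -0.07 (SE 0.16 and 0.20), and Fosb at -0.04 (SE 0.13), and for these 6 the adjusted p was also 1.0. The interval for Dusp1 ran from -0.53 to 0.39, or 0.695-fold to 1.31-fold. Its knockout arrays 1 and 2 stood at 0.29 and -0.43 from the wild-type mean, so this does not bound a change. All these intervals use limma's variance, which is drawn toward that of all probe sets. They may be too narrow for genes that vary more than most. Over the 9 genes 2 differences were above 0, against 51.4% of all probe sets, and the median was -0.07, against 0.0037 over all probe sets.

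**Figure D2:**
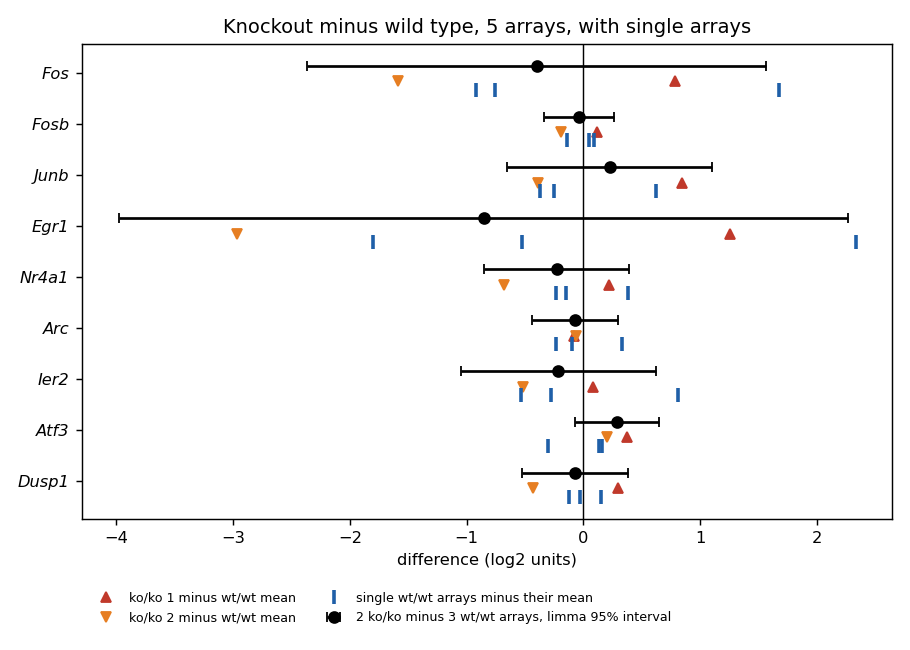
Difference from wild type in log2 units (horizontal axis) for each of the 9 genes (vertical axis), as the 2 knockout minus the 3 wild-type arrays with limma's 95% interval (circles and bars), as each knockout array minus the wild-type mean (triangles) and as single wild-type arrays (ticks). Every interval crosses 0, and the knockout arrays 1 and 2 fall on opposite sides of 0 for 7 of the 9 genes.

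With all 6 arrays, as the series' design sets them, 0 of 9 members and 0 of 45037 probe sets were called by limma, which is 0% of those tested. At an unadjusted p under 0.05 stood 0 members and 452 probe sets. The largest differences among the members were those of Egr1, at -1.12 (SE 1.48, adjusted p = 0.811), and Fos, at -0.59 (SE 0.93, adjusted p = 0.834). Dusp1 stood at 0.35 (SE 0.41, adjusted p = 0.800). Over the 9 genes 6 differences were above 0, against 46.5% of all probe sets, with a median of 0.14 against -0.02. Without the array labelled knockout 3, that median was -0.07.

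Set array by array against wild type, knockout arrays 1 and 2 had member medians on opposite sides of the wild-type mean. Knockout array 2 lay below the wild-type range for Fos, Fosb, Junb, Egr1, Nr4a1 and Dusp1, 6 of 9 members, where 22.7% of all probe sets did. The distance below the lowest wild-type array was 1.17 log2 units for Egr1, 0.66 for Fos, 0.44 for Nr4a1 and 0.31 for Dusp1. It was only 0.06 for Fosb, which is at background, and 0.02 for Junb. Atf3 alone of the members lay above the range in that array, where 27.6% of all probe sets did. Knockout array 1 lay above the wild-type range for Junb (by 0.22), Atf3 (0.21), Dusp1 (0.15) and Fosb (0.03), 4 of 9 members against 23.6% of all probe sets. It lay below the range for 0 members, against 26.2%, and inside it for Fos, Egr1, Nr4a1, Ier2 and Arc. The median of the 9 genes was 0.29 in knockout array 1 and -0.43 in knockout array 2 relative to the wild-type mean. The 3 wild-type arrays themselves stood at -0.14, 0.38 and -0.24.

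The spread between arrays of one genotype stood out against the rest of the transcriptome in the same few genes. A wild-type range of 1 log2 unit or more was found for Egr1, Fos and Ier2, 3 of 9 members, against 0.473% of all probe sets. Knockout arrays 1 and 2 lay that far apart for Egr1, Fos and Junb, again 3 of 9, against 0.333%. Egr1 and Fos met both conditions, as 2 of the 22 probe sets that did (0.0488%). Muscle genes (Tnnc2, Myh1, Myl1), lens crystallins (Crygd, Cryga) and the pigment cell gene Dct are among the other 20. In 8 of 9 members knockout array 1 exceeded knockout array 2, against 45% of all probe sets, and in 7 of 9 wild-type array 2 was the highest of its group, against 30.1%. Members of one response are not independent of each other, and these conditions were chosen after the values were seen, so the counts are a description.

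**Figure D3:**
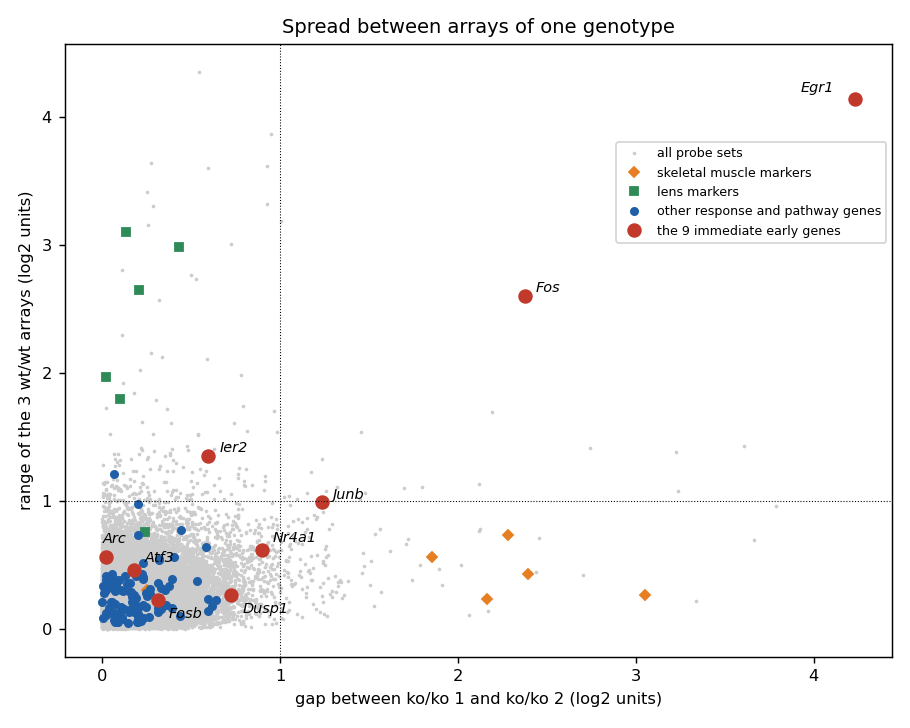
Range of the 3 wild-type arrays (vertical axis) against the gap between knockout arrays 1 and 2 (horizontal axis), both in log2 units, 1 point per probe set. Egr1 and Fos lie apart from the other response and pathway genes (blue). Of the list markers, 5 of the 6 lens markers (green) are wide among the wild-type arrays alone, and 5 of the 6 muscle markers (orange) between the knockout arrays alone.

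Genes that share regulators or function with the 9 did not vary with them to that extent. A list of 102 further genes in 7 groups was used, of which 96 were measured, with 1 probe set each. Their median wild-type range was 0.22, against 0.62 for the 9 members and 0.21 for all probe sets. One of the 96, the stress-induced chromatin protein gene Nupr1, had a wild-type range over 1, and for 0 of them were the knockout arrays 1 log2 unit apart (at most 0.64). In the 5-array comparison 0 of 96 were called by limma and 3 had an unadjusted p under 0.05, with 47 of 96 differences above 0 and a median of -0.0032. In the 6-array comparison 0 were called and 0 had an unadjusted p under 0.05.

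Other AP-1 and related bZIP genes (11 of 11 measured) had a median of 0.08 in the 5-array comparison, with 7 above 0 and 0 called. Fosl2, a Fos relative, stood at 0.21 (SE 0.12), Batf3 at 0.22 (SE 0.13) and Mafk at 0.18 (SE 0.10). Jun itself, the usual partner of Fos, read 8.40 and 8.23 in knockout arrays 1 and 2, against 8.39, 8.42 and 8.60 in wild type. Jun was thus not raised in the 2 arrays where Fos was high. In the Egr and Nr4a families and their corepressors (7 of 7 measured, 0 called) the median was 0.06. Egr2 read 4.23 and 4.13 in the knockout arrays against 3.98, 4.27 and 3.89 in wild type. Each of these values lay under the highest Bacillus control of its array (4.18 to 4.60), so Egr2 cannot be told from background there. The close homologue of Nr4a1, Nr4a2, read 6.76 and 6.67 against 6.61, 6.66 and 6.65. Egr3, which read 5.69 and 5.56 in the knockout arrays against 5.72, 5.57 and 5.61 in wild type, had no counterpart of the Egr1 spread. Nab2, a corepressor of Egr proteins, stood at -0.12 (SE 0.10), and Nr4a3, the remaining family member, at 0.10 (SE 0.13).

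Further rapid response genes (27 of 27 measured) had a median of 0.04, with 14 above 0 and 0 called. Those with the largest differences were Trib1, a pseudokinase, at -0.36 (SE 0.14), the clock-linked repressor gene Bhlhe40 at 0.33 (SE 0.10) and the GTPase gene Rhob at -0.24 (SE 0.21), each with a limma adjusted p = 1.0. Neuronal activity genes (12 of 14 measured, 0 called) had a median of -0.01. Among these, the prohormone convertase gene Pcsk1 stood at -0.27 (SE 0.17), the neuropeptide precursor gene Vgf at -0.26 (SE 0.22) and the clock gene Per1 at -0.23 (SE 0.13). Npas4, an activity-dependent factor of neurons, read 4.59 and 4.40 in the knockout arrays, against 4.68, 4.44 and 4.62 in wild type. In knockout array 2 and wild-type array 2 Npas4 lay under the highest Bacillus control (4.41 and 4.60).

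Upstream factors and kinases (14 of 18 measured, 0 called) had a median of -0.01. Serum response factor, Srf, read 7.43 and 7.50 in the knockout arrays, against 7.55, 7.65 and 7.45 in wild type. Mapk9 and Mapk8, both JNK kinases, stood at -0.18 (SE 0.12) and -0.15 (SE 0.11). The ternary complex factor gene Elk3 stood at 0.12 (SE 0.10). Its wild-type values lay near or under the highest Bacillus control of their arrays (4.18 to 4.60), so that difference is not clear of background. Among phosphatases and feedback genes of the ERK pathway (15 of 15 measured, 0 called) the median was -0.06. Etv5, an ETS factor, stood at -0.55 (SE 0.17, adjusted p = 1.0). Dusp6, the ERK phosphatase, read 7.99 and 7.40 in knockout arrays 1 and 2, against 7.98, 7.999 and 7.77 in wild type, and so was lowest in knockout array 2. Another ERK phosphatase gene, Dusp5, stood at -0.19 (SE 0.12). Atf3-linked stress genes (10 of 10 measured, 0 called) had a median of -0.04, with Nupr1 at -0.33 (SE 0.33), the asparagine synthetase gene Asns at 0.13 (SE 0.10) and the mTORC1 inhibitor gene Ddit4 at -0.12 (SE 0.12).

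Markers of other tissues and of injury also differed between single arrays. The summed linear level of the 6 lens markers, on a log2 scale, was 10.95 and 11.21 in knockout arrays 1 and 2, against 11.12, 13.88 and 11.06 in wild type, so wild-type array 2 stood apart. The 7 reactive glia markers summed to 11.24 and 10.35 in the knockout arrays, against 10.23 to 10.35 in wild type, and the 8 microglia markers to 10.22 and 9.79, against 9.63 to 9.73. All 7 and all 8 of these had a 5-array difference above 0, against 51.4% of all probe sets, with 0 called. Medians relative to the wild-type mean were 0.71 and 0.14 in knockout arrays 1 and 2 for reactive glia. For microglia they were 0.51 and 0.07, so the shift lay mainly in knockout array 1. Edn2, an endothelin of stressed photoreceptors, was counted among the 7 reactive glia markers, so their sum is not of glial genes alone. It read 8.73 in knockout array 1 and 5.06 in knockout array 2, against 4.17 to 4.86 in wild type. The 6 pigment epithelium markers summed to 12.56 and 13.02 in the knockout arrays, against 12.92, 13.45 and 12.76 in wild type. The 6 skeletal muscle markers summed to 7.80 and 9.92 in the knockout arrays, against 7.86 to 8.34 in wild type. Of the 2 arrays with high Fos, wild-type array 2 thus had the highest lens and pigment epithelium sums. Knockout array 1 had the highest reactive glia and microglia sums of the 5 arrays. The muscle sum was highest in knockout array 2, where Fos was lowest, and next in wild-type array 2, where Fos was highest. Signal from the 3′ end of Actb, a measure of RNA integrity, exceeded that from its 5′ end by 1.09 and 1.08 in the knockout arrays, against 1.01, 1.17 and 1.24 in wild type. The part of these markers in the spread of the 9 genes was not tested.

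Among genes outside the 9, those nearest to Fos by root-mean-square distance of centred values over the 5 arrays were Spry3, a Sprouty family member (0.715 log2 units), and 4 lens-expressed genes, Cryab (0.758), Lim2 (0.764), Mip (0.786) and Bfsp1 (0.789). A flat profile lies 1.21 from Fos, so these are loose matches. These lens genes share with Fos the high wild-type array 2 but not the gap between the knockout arrays. Cryab, for instance, read 9.93 and 9.81 in knockout arrays 1 and 2, against 9.87, 11.68 and 9.76 in wild type. Mip and Bfsp1 lay near or under the highest Bacillus control in both knockout arrays, so a gap there could be hidden. Among the members, Junb (0.749) and Ier2 (0.754) lay as near to Fos as the lens genes. Among genes outside the 9, those nearest to their mean profile were the alpha globin gene Hba-a2 (0.214), Etnppl (0.268), Gm29722 (0.276), Rpl27a (0.279) and the mitochondrial iron carrier gene Slc25a37 (0.280), where a flat profile lies at 0.509. The members Nr4a1 (0.179), Junb (0.207) and Ier2 (0.216) were the nearest of the 9 to that mean profile. The mean includes the members themselves, so their distances are not comparable with those of other genes. Dusp1 (0.296) and Fosb (0.414) came next. Arc (0.605), Atf3 (0.630), Fos (0.715) and Egr1 (1.44) lay farther from the mean profile than a flat profile does. Hba-a2 read 5.52 and 4.78 in knockout arrays 1 and 2, against 4.81, 5.47 and 4.98 in wild type. The 2 measured markers listed for blood did not follow that order. They summed to 4.81 and 5.33 in the knockout arrays, against 5.03, 4.93 and 4.89 in wild type. Of these 2, 1 lay under the highest Bacillus control in every array.

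In the array labelled knockout 3, with its olfactory transcripts, 5 members lay above the wild-type range (34.3% of all probe sets did) and 2 below it (46.7%). Nr4a1 read 9.91 there, against a highest wild-type value of 9.04, and Arc read 4.98 against 4.43. Dusp1 read 10.39, and was the 1 member at least 1 log2 unit above the range, where 10.8% of all probe sets were. Ier2 and Fosb exceeded the range by only 0.03 and 0.12. Atf3, at 5.64, lay 0.88 below the range, and Fos, at 8.94, lay 0.05 below it. No member lay as much as 1 log2 unit below, against 9.5% of all probe sets. Egr1 read 9.60 and Junb 6.86 there, both inside the wild-type range.

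Of the 96 listed genes, 19 lay at least 1 log2 unit above the wild-type range in that array and 10 as far below, where 10.8% and 9.5% of all probe sets did. The wild-type range itself is wider for the 9 members, so these counts are not set against theirs. Nupr1 read 10.95 there, against 5.65 to 6.86 in wild type. Among rapid response genes, Ccn1, a matrix protein gene, read 8.41 against 5.61 to 5.72. The Krüppel-like factor genes Klf4 and Klf2 read 6.48 and 7.58 against highest wild-type values of 3.95 and 5.21. In wild type Klf4 lay under the highest Bacillus control of each array (4.18 to 4.60), so the size of its difference is uncertain. Fosl2 read 7.56 against 4.98 to 5.14, with Maff at 5.81 and Jund at 10.64 above their highest wild-type values of 4.88 and 9.94. In the Egr and Nr4a group, Nr4a2 read 7.62, Nab1 8.96 and Egr2 4.72, against highest wild-type values of 6.66, 8.32 and 4.27.

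Feedback, upstream and stress genes went both ways in the same array. Spry1, an inhibitor of receptor tyrosine kinase signalling, read 8.72 there against 6.77 to 6.88 in wild type, while its relative Spry2 read 7.90 against 9.12 to 9.48. The phosphatase gene Dusp10 read 5.197 against 6.697 to 7.01. Elk3 read 5.55 against 4.09 to 4.22, whereas Crtc1, a CREB coactivator, and the ERK kinase gene Map2k1 read 7.38 and 8.78, under lowest wild-type values of 8.11 and 9.52. Ppp1r15a, which restores translation after stress, read 9.53 against 7.91 to 8.01, and the lipoprotein receptor gene Vldlr read 9.44 against 11.32 to 11.41. On the low side stood the neuronal genes Scg2 (7.31 against 10.87 to 11.16), Nrn1 (5.26 against 8.62 to 8.95) and Vgf (5.15 against 7.44 to 8.20). Trib1 read 6.81, against 8.68 to 9.09 in wild type. Summed olfactory neuron markers stood at 14.69 in this array and at 8.33 to 8.48 in the other 5, and summed rod markers at 6.80 against 16.49 to 16.53. Signal from the 3′ end of Gapdh exceeded that from its 5′ end by 0.44 in this array, against -0.04 to 0.05 in the other 5, while for Actb the excess was 1.07, against 1.01 to 1.24. With 1 array there is no replicate check of these values, and the part of its tissue markers and RNA integrity in them was not tested.

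**Figure D4:**
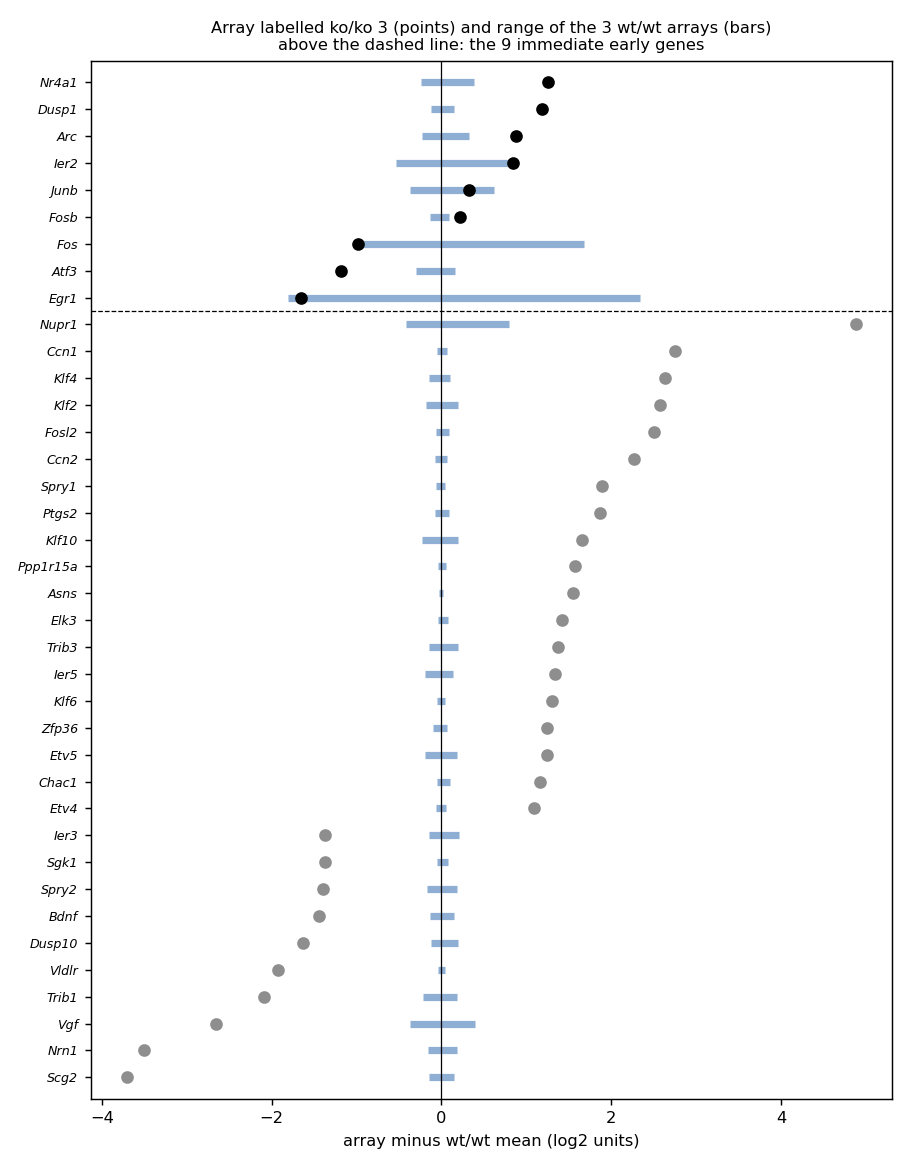
Value of the array labelled knockout 3 minus the wild-type mean (points) and the range of the 3 wild-type arrays (bars), in log2 units on the horizontal axis, for the 9 immediate early genes (above the dashed line) and every listed gene at least 1 log2 unit outside the wild-type range (below it). Egr1 lies within its wide bar and Fos just under its own, whereas Nr4a1, Dusp1, Arc and Atf3 lie outside theirs.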

How the data were processed

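Retinal RNA was labelled with biotin and hybridised to 1-colour Affymetrix arrays, per the labels' protocols, 3 per genotype. The deposited log2 values are the authors' RMA output (background correction, quantile normalization and probe summary), a method named in the submitters' processing notes. The sources used here give neither its software and version nor the chip definition. RMA hides changes in total RNA, and detection calls were not used here.

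Of 45101 probe sets, 64 controls were left out. Genes were named from the platform annotation, never where it gives several. Listed genes with several probe sets were represented by the one with the highest mean over 6 arrays. Differences, knockout minus wild type, were fitted with lmFit and eBayes of limma 3.58.1 under R 4.3.3, and two-sided p-values were adjusted by Benjamini-Hochberg over all probe sets. The fits were also run on simulated data, with outcomes not given here. All simulated arrays started from the wild-type means, so the array labelled knockout 3 was not represented. Figures were drawn with matplotlib 3.10.9.

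The members, lists and tests were chosen with earlier results of these data known. Named genes are all members, then, in each list, up to 3 genes by each of 2 rules (largest difference in 5 arrays, largest in the array labelled knockout 3). The 5 nearest genes by profile distance were added, and Jun, Egr3, Npas4, Srf, Gnat1, Omp, Edn2 and those named for spread were chosen after their values were seen. Alternatives were trend and robust options, array weights, repeated quantile normalization, centring, a filter on dim probe sets, a replicate block, each array left out, and genes in place of probe sets.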

Additional observations from a re-analysis of the deposited data

How the results depend on the processing

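None of the 9 genes passed an adjusted p of 0.05 by limma in any alternative run, with a lowest adjusted p of 0.956 for 5 arrays and 0.566 for 6. Counts of called probe sets moved from 5 in the 5-array comparison to 2 genes with 1 probe set per gene, 1 with the mean of probe sets per gene, and 4 to 11 with an array left out. With 6 arrays the count of 0 became 5 with array quality weights, 1 at a threshold of 0.1, and 0 to 5 with an array left out. The members' median ranged from -0.43 (without knockout array 1) to 0.29 (without knockout array 2) in 5 arrays, and from -0.07 to 0.40 in 6, where array weights gave -0.22. Without Fosb, which is at background, the medians were -0.14 and 0.19, a setting chosen after seeing the data.

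Directions of the members depended on single arrays. With an array left out of 5, differences ran from -1.59 to 0.79 for Fos, -2.97 to 1.26 for Egr1, -0.39 to 0.84 for Junb, -0.68 to 0.22 for Nr4a1, -0.51 to 0.19 for Ier2, -0.43 to 0.29 for Dusp1, -0.19 to 0.12 for Fosb and -0.19 to 0.093 for Arc, while Atf3 stayed above 0. Leaving out knockout array 2 turned Fos, Egr1, Nr4a1, Ier2, Dusp1 and Fosb, wild-type array 2 turned Fos, Egr1, Ier2, Dusp1 and Fosb, knockout array 1 turned Junb, and wild-type array 3 turned Arc. Out of 6, they ran from -1.28 to 0.25 for Fos, -2.31 to 0.045 for Egr1, -0.033 to 0.58 for Junb, -0.23 to 0.74 for Nr4a1, -0.21 to 0.55 for Ier2, -0.069 to 0.74 for Dusp1, -0.037 to 0.17 for Fosb, -0.071 to 0.41 for Arc and -0.49 to 0.29 for Atf3. Array weights in 6 arrays turned Fosb (-0.13), Junb (-0.11), Nr4a1 (-0.45), Ier2 (-0.36), Atf3 (0.24) and Dusp1 (-0.22). The cause was not tested. A knockout array left alone is taken to have the spread of the wild-type arrays.

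Whether replicate numbers pair the samples could not be decided. Deviations of same-numbered arrays from their group means correlated at -0.06, -0.03 and -0.10 in 6 arrays, and at -0.07 and 0.15 for the 2 pairs in 5 arrays. In 6 arrays the array with olfactory transcripts enters the knockout mean, and so every knockout deviation. In 5 arrays the deviations of the 2 knockout arrays mirror each other, so the 2 correlations are not separate checks. With the replicate number as a block, 6 probe sets were called in 5 arrays and 0 in 6. The members' medians were -0.10 and 0.14, and only Arc turned, to 0.093 in 5 arrays. In 5 arrays wild-type array 3 has no partner, so the members' differences equalled those with that array left out. The turn of Arc is thus not a separate check.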
